A study of Mus musculus with 9 samples.

Results

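Plexins and Robo proteins are cell-surface receptors that steer growing axons and dendrites. Plexins bind semaphorins, in several cases together with neuropilin coreceptors, and their intracellular domain acts on small GTPases, so that the cytoskeleton of the growth cone is reorganised and the axon is usually turned away. Robo receptors bind Slit proteins and are best known for keeping axons from crossing the midline of the nervous system. Both families are made in the young brain, where they also take part in synapse formation and cell migration.

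The 10 receptor genes described here were chosen by symbol from the authors' gene table, which holds 29524 genes. They are the 8 plexins Plxna1, Plxna2, Plxna3, Plxna4, Plxnb1, Plxnb2, Plxnc1 and Plxnd1 and the 2 Slit receptors Robo1 and Robo2. The measurement was HITS-CLIP on brain polyribosomes: ultraviolet light fixes a protein to the RNA it touches, the protein is immunoprecipitated, and the RNA pieces still attached to it are read as tags. FMRP, whose loss causes fragile X syndrome, was precipitated in 7 libraries. A mixture of the monoclonal antibodies 7G1-1 and 2F5 was used at postnatal days P14, P15 and P25, and the polyclonal antibody ab17722 at P14 and P25, all after dissociation in 1% SDS (Protocol 1) and read on the 454 platform. The polyclonal antibody was used again at P11 and P13 after dissociation in 2% SDS (Protocol 2), read on Illumina. The Hu proteins, neuronal RNA-binding proteins that are also found on polyribosomes, were precipitated with a human antiserum from the other part of the same P11 and P13 lysates, with Protocol 2 and Illumina. Every library came from pooled littermate mice of the FVB strain, with white matter dissected away. The Fmr1-null material that the series text mentions was not analysed here, so a background of tags without FMRP was not measured.

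The FMRP libraries held 4397 to 7713 transcript tags on 454 and 26794 and 44076 on Illumina, and the Hu libraries 25873 and 49847. Levels are given as CPM, tags of a gene per 1000000 transcript tags of its library. A count of 0 allows up to 3 tags, or 682 CPM in the smallest library but 60.2 CPM in the largest one. All 7 neuronal marker genes carried tags, as did all 6 oligodendrocyte and all 6 astrocyte markers, whereas the microglial genes Cx3cr1, C1qa, C1qb and Aif1 and the endothelial genes Cldn5 and Tek had no tag in the transcript lists of the 9 libraries. On Illumina, summed neuronal markers had 1941 and 3585 CPM with FMRP, against 7537 and 10552 CPM with Hu. Summed oligodendrocyte markers had 299 and 2382 CPM with FMRP, against 5334 and 11836 CPM with Hu, and summed astrocyte markers 2127 and 1724 CPM with FMRP, against 155 and 802 CPM with Hu. These sums thus stood apart between the proteins too, and the part of cell type in the values below was not tested. Less RNA per cell and fewer cells of a type cannot be told apart in such lysates.

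The receptor mRNAs took a larger share of the FMRP tags than of the Hu tags. The 9 receptors with a transcript tag held 0.433% (95% Wilson interval 0.361% to 0.519%) and 0.286% (0.240% to 0.340%) of all tags in the FMRP P11 and P13 Illumina libraries, against 0.0618% (0.0381% to 0.100%) and 0.0802% (0.0589% to 0.109%) in the Hu P11 and P13 libraries. The intervals of the FMRP and Hu libraries did not overlap, but they cover counting error within each library only. In the 5 FMRP libraries read on 454 the share lay between 0.284% and 0.518%. The difference lay in the plexins, which took 0.377% and 0.263% of the tags in the FMRP Illumina libraries, against 0.0271% and 0.0381% in the Hu libraries. The Robo genes took 0.0560% and 0.0227% in the FMRP Illumina libraries, against 0.0348% and 0.0421% in the Hu libraries, and these values overlapped.

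**Figure D1:**
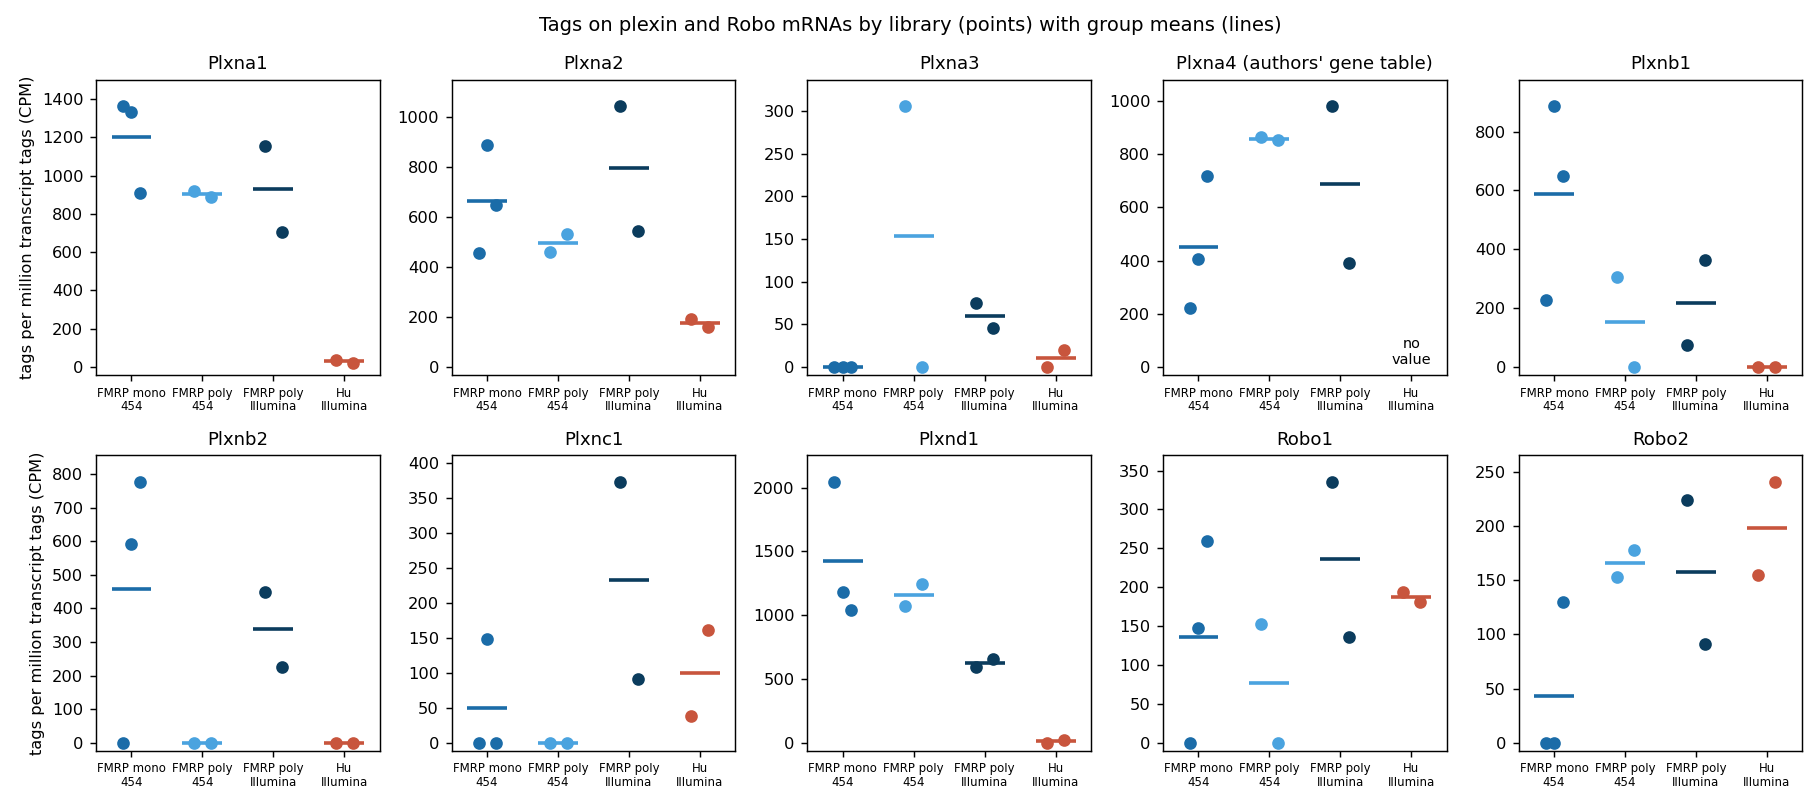
Tag level in CPM for each of the 10 receptor genes, 1 point per library and a line at the group mean, with FMRP monoclonal (454), FMRP polyclonal (454), FMRP polyclonal (Illumina) and Hu (Illumina) libraries from left to right; the vertical axes differ between genes, and Plxna4 is shown from the authors' gene table, which holds no Hu value. The FMRP libraries lie above both Hu libraries for Plxna1, Plxna2 and Plxnd1, and the groups overlap for Plxnc1, Robo1 and Robo2.

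FMRP was set against Hu on the 4 Illumina libraries, the only ones in which both proteins were measured in the same lysates. The test was edgeR's quasi-likelihood test over 1015 genes with enough tags, of which 33.5% were called higher in FMRP and 26.7% higher in Hu at a Benjamini-Hochberg adjusted p of 0.05. Of the 10 receptor genes only Plxna1, Plxna2 and Plxnd1 entered that test, and all 3 were called higher in FMRP. They entered it through their FMRP tags, so their number says nothing about the family as a whole. Without the Hu P11 library 323 of 1822 genes were called, against 611 of 1015 with all 4 libraries. The balance of calls moved with the tool and the scaling: scaled by library totals, 335 genes were called higher in FMRP and 379 higher in Hu, and with DESeq2's test 334 and 128. With either, Plxna1, Plxna2 and Plxnd1 were called higher in FMRP.

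Among the A-type plexins, which bind class 6 semaphorins directly and class 3 semaphorins together with neuropilins, Plxna1 and Plxna2 were both called. Plxna1 (chr6:89268851-89312590, minus strand, mm9) had 31 and 31 tags in the FMRP P11 and P13 Illumina libraries, against 1 and 1 in the Hu P11 and P13 libraries. That is 930 ± 321 CPM with FMRP and 29.4 ± 13.1 CPM with Hu (SD, n = 2 each). Both FMRP libraries were far above both Hu libraries, with a log2 fold change of 5.16 (SE 0.89, adjusted p = 0.00250). The CPM ratio was 33.1, with an exact 95% counting interval of 8.79 to 280. In the 454 libraries Plxna1 had 6, 9 and 7 tags with the monoclonal antibodies (P14, P15, P25) and 6 and 5 with the polyclonal antibody (P14, P25), so that no FMRP library lacked it.

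Plxna2, a receptor for Sema6a in the developing hippocampus and cerebellum, had 28 and 24 tags in the FMRP P11 and P13 libraries, against 5 and 8 in the Hu libraries. It lies at chr1:196446023-196643062 on the plus strand of mm9. The means were 795 ± 354 CPM with FMRP and 177 ± 23.2 CPM with Hu (SD, n = 2 each), and the groups did not overlap. Of the 3 called receptors it had the smallest fold change, 2.38 on the log2 scale (SE 0.70, adjusted p = 0.0184), a ratio of 4.27 (2.29 to 8.56). Without the Hu P11 library the fold change was 2.24 and the adjusted p 0.147, and with no filter on low counts they were 2.17 and 0.165, so the call did not hold in those settings. With genomic tags, counted within the gene bounds with introns included, Plxna2 had 26 and 23 tags in the FMRP libraries, against 4 and 6 in the Hu libraries, and an adjusted p of 0.00269.

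The remaining A-type receptors were measured only in part. Plxna3 (chrX:71574405-71590028, plus strand, mm9), an X-linked receptor that works with neuropilin 2, had 2 and 2 tags in the FMRP P11 and P13 libraries, against 0 and 1 in the Hu libraries. At this depth no difference was detectable, the ratio of 4.27 having an interval of 0.423 to 210. Plxna4, a receptor for Sema3a and Sema6a, has counts in the authors' gene table but no line in the transcript tag lists, so it has no Hu value here. In that table it had 25 and 17 tags in the FMRP P11 and P13 Illumina libraries, 1, 3 and 6 in the monoclonal 454 libraries (P14, P15, P25) and 6 and 5 in the polyclonal 454 libraries (P14, P25). All 7 libraries thus held it.

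Neither B-type plexin had a Hu tag. Plxnb1, the receptor for Sema4d, lies at chr9:108998106-109022425 on the plus strand of mm9 and had 2 and 16 tags in the FMRP P11 and P13 libraries, against 0 and 0 in the Hu libraries. Against a limit of 3 counts over both Hu libraries this is at least 6.41-fold higher in FMRP, but nearly all of it came from the P13 library. Plxnb2, a receptor for class 4 semaphorins that is needed for cerebellar granule cell development, had 12 and 10 tags in the FMRP P11 and P13 libraries, against 0 and 0 in the Hu libraries, at least 7.84-fold higher with FMRP. Neither passed the filter on low counts of the main test. With no filter the adjusted p was 0.0263 for Plxnb1 and 0.0131 for Plxnb2, in a fit where 3.64% of 10338 genes were called higher in FMRP and 1.5% higher in Hu. Each was tested in 2 leave-one-out fits, where 1 protein is left with 1 library, and neither kept its call in both. The log2 fold change of Plxnb1 was 7.38 without the FMRP P11 library and 6.34 without the Hu P11 library. That of Plxnb2 was 6.69 without the Hu P11 library and 6.54 without the Hu P13 library. With 0 Hu tags both genes entered each fit through their FMRP tags alone, so these calls say nothing about the family as a whole.

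Plxnb2 differed between the deposited files. The authors' gene table lists it at 0 in all 7 FMRP libraries, with no transcript length and no mm9 bounds. The transcript tag lists hold 32 FMRP tags on its predicted RefSeq transcript. Besides the 22 Illumina tags these were 0, 4 and 6 tags in the monoclonal 454 libraries (P14, P15, P25), against 0 and 0 in the polyclonal 454 libraries (P14, P25). The limit for 0 tags is 459 and 533 CPM in those polyclonal libraries, against 592 and 778 CPM measured in the P15 and P25 monoclonal ones, while the P14 monoclonal library also had 0. The fit between the antibodies used the table's counts, which are all 0 for Plxnb2, and the transcript tags of Plxnb2 were not fitted between the antibodies.

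Plxnd1, the receptor for Sema3e, which binds it without a neuropilin, lies at chr6:115904829-115945023 on the minus strand of mm9. It had 16 and 29 tags in the FMRP P11 and P13 libraries, against 0 and 1 in the Hu libraries, or 628 ± 43.0 CPM with FMRP and 10.0 ± 14.2 CPM with Hu (SD, n = 2 each). The log2 fold change was 5.52 (SE 0.97, adjusted p = 0.00250), and the ratio of 48.1 had a wide interval of 8.20 to 1941 because it rests on a single Hu tag. On 454 it had 9, 8 and 8 tags with the monoclonal antibodies (P14, P15, P25) and 7 and 7 with the polyclonal antibody (P14, P25), and every FMRP library held it.

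Plxnc1 and the Robo genes showed no such excess of FMRP tags. Plxnc1, the receptor for Sema7a, lies at chr10:94253612-94407212 on the minus strand of mm9 and had 10 and 4 tags in the FMRP P11 and P13 libraries, against 1 and 8 in the Hu libraries. The ratio was 1.66 with an interval of 0.670 to 4.35. Robo1 (chr16:72663394-73046345, plus strand, mm9) had 9 and 6 tags in the FMRP P11 and P13 libraries, against 5 and 9 in the Hu libraries, a ratio of 1.14 (0.515 to 2.56). Robo2 (chr16:73892551-74411157, minus strand, mm9) had 6 and 4 tags in the FMRP P11 and P13 libraries, against 4 and 12 in the Hu libraries, a ratio of 0.668 (0.271 to 1.57). For each of these receptors the FMRP and Hu libraries overlapped, and the interval holds both a rise and a fall.

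With the filter lowered to 3 tags, Plxnc1, Robo1 and Robo2 could be fitted, in a test that called 24.5% of 2980 genes in favour of FMRP and 17.8% in favour of Hu. The log2 fold changes were 0.96 for Plxnc1 (SE 1.02, adjusted p = 0.462), 0.33 for Robo1 (SE 0.92, adjusted p = 0.798) and -0.38 for Robo2 (SE 0.97, adjusted p = 0.770), none of them past the threshold. Plxnb2 passed in the same fit (adjusted p = 0.00538), which it entered through its FMRP tags alone. Genomic tags added many Hu tags to Robo2, which had 6 and 7 within its gene bounds in the FMRP P11 and P13 libraries, against 8 and 26 in the Hu libraries. The genomic ratio of Robo2 was 0.540 (0.262 to 1.05) and the adjusted p 0.215. Robo1 had 8 and 7 genomic tags in the FMRP libraries, against 10 and 12 in the Hu libraries, with an adjusted p of 0.819.

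**Figure D2:**
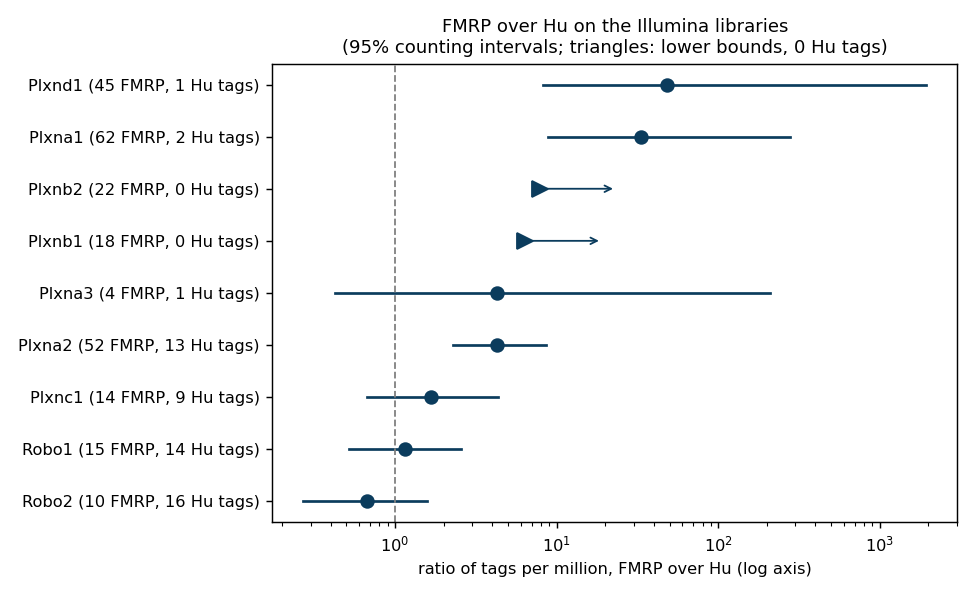
CPM ratio, FMRP over Hu, over both Illumina libraries of each protein, on a log axis; points with lines are ratios with exact 95% counting intervals, and triangles with arrows are lower bounds for genes with 0 Hu tags, set against 3 counts. The intervals of Plxna1, Plxna2 and Plxnd1 lie above 1, and those of Plxna3, Plxnc1, Robo1 and Robo2 include 1.

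The lysates did not give the same direction for these last receptors. Plxnc1 had 373 CPM with FMRP and 38.7 CPM with Hu at P11, but 90.8 CPM with FMRP and 160 CPM with Hu at P13. Robo1 had 336 CPM with FMRP and 193 CPM with Hu at P11, and 136 CPM with FMRP and 181 CPM with Hu at P13. Robo2 had 224 CPM with FMRP and 155 CPM with Hu at P11, and 90.8 CPM with FMRP and 241 CPM with Hu at P13. FMRP was thus above Hu at P11 and below it at P13 in all 3, on 1 to 12 tags per library and with no test of the difference. How many of all genes changed direction in this way was not counted. From P11 to P13 the FMRP level also fell for Plxna1 (1157 to 703 CPM), Plxna2 (1045 to 545), Plxnb2 (448 to 227) and Plxna3 (74.6 to 45.4). It rose for Plxnb1 (74.6 to 363) and Plxnd1 (597 to 658). Plxna1 and Plxna2 pointed the same way in both lysates, with ratios of 29.9 and 5.41 at P11 and of 35.1 and 3.39 at P13.

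In Robo1, Plxna2 and Plxnc1, FMRP and Hu tags lay largely on different stretches of the transcript. Positions are counted in nucleotides (nt) from the transcript start of the RefSeq sequence, and where the coding sequence begins in each was not given in the sources used here. Robo1 had all 19 FMRP tags between nt 920 and 6141, whereas all 14 Hu tags lay between nt 6308 and 7198. No Hu tag of Robo1 overlapped an FMRP tag, and this held within each lysate: FMRP tags reached nt 6141 and Hu tags began at nt 6308 at P11, and FMRP tags reached nt 5544 and Hu tags began at nt 6489 at P13. The coding sequence of Robo1 is 5103 nt long in the authors' table. Both Hu libraries placed tags over nt 6489 to 6560, where 5 of the 14 Hu tags overlapped.

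Plxna2 was similar. Its 52 Illumina FMRP tags had a median position of nt 4964, whereas the 13 Hu tags had a median of nt 10302 and began at nt 6750. All 13 Hu tags lay beyond the FMRP median, 5 of them beyond the last FMRP tag, and 1 overlapped an FMRP tag. Of the 71 FMRP tags in 7 libraries, 58 ended before the first Hu tag. The median positions in Plxnc1 were nt 4128 for 14 FMRP tags and nt 6044 for 9 Hu tags, and all 9 Hu tags lay beyond the FMRP median. In Robo2 they were nt 3585 for 10 FMRP tags and nt 5728 for 16 Hu tags, but 6 of the 16 Hu tags overlapped an FMRP tag and 1 Hu tag lay near the start, so the stretches were mixed.

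A later position of Hu tags was the common case among all transcripts. Of 1598 transcripts with at least 5 tags of each protein on Illumina, 89.4% had a Hu median beyond the FMRP median, by a median of 1309 nt. All 4 receptors with enough tags fell on that side. The distance was 5338 nt in Plxna2, larger than in 96.9% of the transcripts, 3586 nt in Robo1 (90.4%), 2143 nt in Robo2 (71.7%) and 1917 nt in Plxnc1 (66.1%). Distances were not scaled by transcript length, and the transcripts of these receptors are long. Full separation, as in Robo1, where every Hu tag followed the last FMRP tag, was found in 6.95% of the 1598 transcripts.

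**Figure D3:**
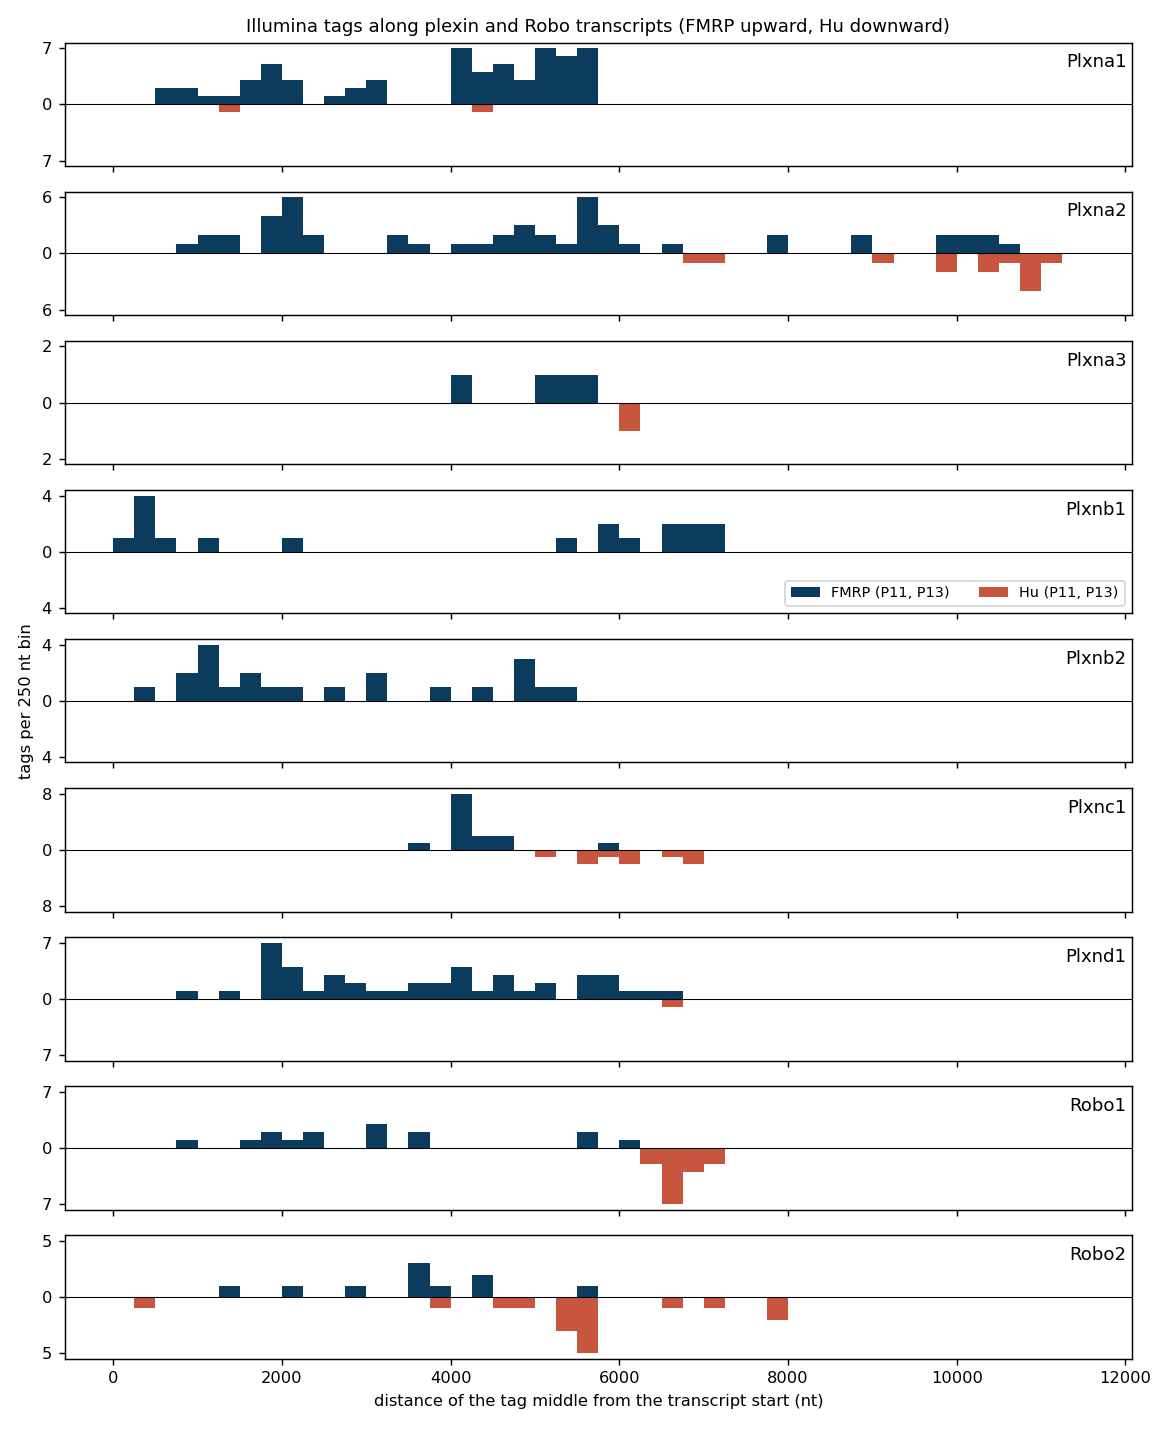
Illumina tags in bins of 250 nt along each receptor transcript, with FMRP tags (P11 and P13 summed) drawn upward and Hu tags downward; the horizontal axis is the distance of the tag middle from the transcript start in nt, and the vertical scale differs between genes. The 14 Hu tags of Robo1 lie beyond all its FMRP tags and the 13 of Plxna2 beyond its FMRP median, and Plxnb1 and Plxnb2 have no Hu tags.

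The FMRP tags themselves were spread over long stretches with few shared sites. The 95 FMRP tags of Plxna1 lay between nt 244 and 5793 and started at 80 different positions. At most 4 of the 7 libraries had a tag over the same nucleotide, at nt 1705 to 1729, where both antibodies and both platforms contributed. Plxnd1 was as dispersed, its 84 FMRP tags starting at 79 positions between nt 44 and 6746, with at most 3 libraries over the same nucleotide. The 71 tags of Plxna2 started at 66 positions, and again at most 3 libraries met. Plxnc1 was the exception. Of its 10 FMRP tags at P11, 7 were stacked over nt 4102 to 4152, from 4 different starts, and no other FMRP library had a tag there. At P13 its 4 FMRP tags had 4 different starts.

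By the authors' table, most FMRP tags of the receptors lay in coding sequence. Of 378 FMRP tags on 9 receptors, 324 were coding, which is 85.7% (95% Wilson interval 81.8% to 88.9%). The 7 libraries gave 86.3 ± 2.17% (SD, n = 7), with 83.8% as the lowest and 90.5% as the highest, the monoclonal, polyclonal, 454 and Illumina libraries all lying in that range. Tags spread evenly over these transcripts would be coding in 67.5% of cases. For all genes with lengths in the table the coding share of FMRP tags was 76.5%, and from library to library it lay between 68.9% and 86.5%. In the monoclonal libraries the receptors and all genes were close, with 87.5% and 86.5% at P14, 83.8% and 83.2% at P15, and 85.3% and 84.5% at P25. They stood furthest apart in the P13 Illumina library, with 85.8% and 68.9%.

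The coding share differed most from the coding length where the untranslated sequence is long. Robo1 and Robo2 had 14 of 16 and 11 of 13 FMRP tags in coding sequence, 87.5% (64.0% to 96.5%) and 84.6% (57.8% to 95.7%), though only 42.1% and 35.5% of their transcript length is coding. Plxna2 and Plxna4 had 75% (63.6% to 83.8%) and 74.6% (62.7% to 83.7%), against 50.6% and 45.1% of the length. Per kilobase, Plxna2 had 8.97 coding tags and 3.07 other tags, and Plxna4 had 8.27 and 2.32. Plxna1, whose transcript is 87.9% coding, had 92 of 93 tags there, 98.9% (94.2% to 99.8%). In Plxnd1, Plxnb1, Plxna3 and Plxnc1 the interval included the coding share of the length.

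**Figure D4:**
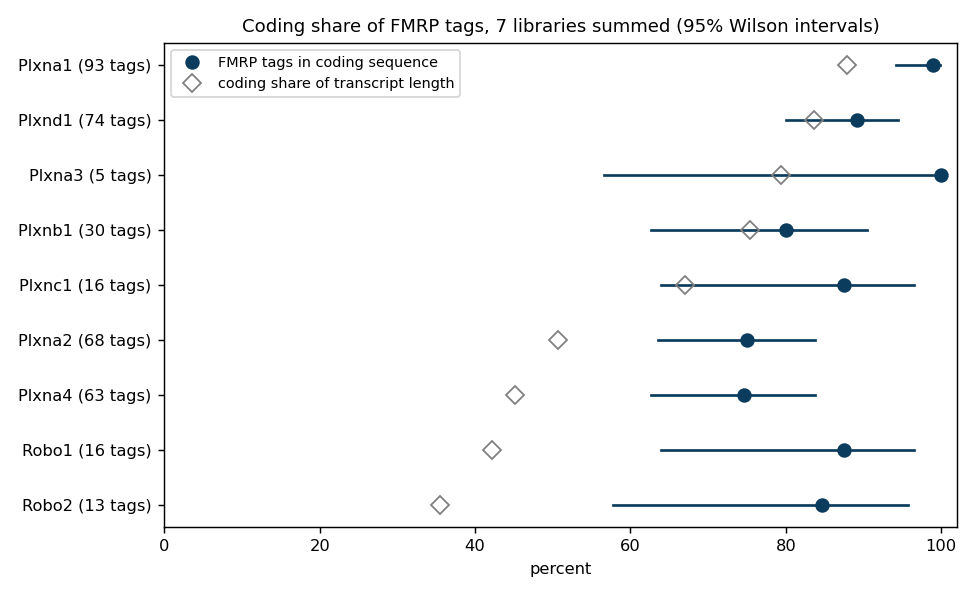
Share of FMRP tags in coding sequence for each receptor, with the tags of 7 libraries summed from the authors' table (filled points, lines for 95% Wilson intervals), beside the coding share of transcript length (open diamonds), ordered by the latter. The interval lies above the diamond for Plxna1, Plxna2, Plxna4, Robo1 and Robo2 and includes it for Plxnd1, Plxna3, Plxnb1 and Plxnc1.

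Scaled by transcript length, the receptors spanned a wide range of FMRP density. Plxna1 had the highest level, 165 ± 51.0 CPM per kilobase of transcript over the 7 FMRP libraries, followed by Plxnd1 with 149 ± 83.5, and the ranges of these neighbours overlapped (99.4 to 251 and 68.1 to 323). Plxna2 followed with 60.8 ± 27.1, Plxna4 with 50.3 ± 23.1 and Plxnb1 with 41.9 ± 26.5 CPM per kilobase, again with overlapping ranges. The highest library of Plxna2 reached 96.4, under the lowest of Plxna1. Plxnc1 had 22.6 ± 22.4, Robo1 10.7 ± 8.73, Robo2 8.25 ± 6.04 and Plxna3 5.41 ± 7.88 CPM per kilobase, and each of these 4 had 0 tags in at least 1 library.

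Among 8824 genes with an FMRP tag and a length, whose median was 1.11 tags per kilobase over the 7 libraries, Plxna1 ranked 157 with 14.4 and Plxnd1 266 with 10.7 tags per kilobase. Plxna2 ranked 681 with 6.06, Plxna4 915 with 5.01 and Plxnb1 1459 with 3.55. Robo1 with 1.32 and Robo2 with 1.01 tags per kilobase lay near the median of all genes, and Plxna3 with 0.707 lay below it. The order did not follow the exon array intensity deposited in the same table, which comes from another measurement. Robo2 had an intensity of 728 and Plxna2 of 871, against 641 for Plxna1 and 507 for Plxnd1, and Plxnb1 had 117. Per 100 intensity units, Plxnb1 had 3.04 tags per kilobase, Plxna1 2.24, Plxnd1 2.11 and Robo2 0.138.

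In the authors' deposited table, which ranks genes by a chi-square statistic over the FMRP libraries, 839 of 30999 lines have an FDR below 0.01, and 5 of the 10 receptors are among them. These are Plxna1 (FDR 1.13e-07), Plxnd1 (2.25e-07), Plxna2 (6.14e-06), Plxna4 (1.07e-05) and Plxnb1 (0.000937) in the authors' deposited table. Each of the 5 had a tag in all 7 FMRP libraries there. Plxnc1 (FDR 0.220), Robo1 (0.297) and Robo2 (0.482) had a tag in 5 libraries each in the authors' deposited table and did not reach 0.01.

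Antibody, age and protocol were compared within FMRP, on the authors' gene counts, with CPM taken over all tags counted in that table. Between the monoclonal and polyclonal antibodies, on the 5 libraries of Protocol 1, edgeR called 0 of 96 genes, with 4 at an unadjusted p under 0.05 and 0 called by DESeq2. No receptor gene had enough tags on 454 to enter that test. Plxnd1 had 1378 ± 738 CPM in the monoclonal libraries (n = 3) and 1014 ± 11.5 CPM in the polyclonal libraries (n = 2), where ± is the SD. Plxna1 had 1346 ± 274 CPM (n = 3) with the monoclonal antibodies and 857 ± 7.36 CPM (n = 2) with the polyclonal antibody. Plxna4 had 449 ± 250 CPM (n = 3) in the monoclonal and 857 ± 7.36 CPM (n = 2) in the polyclonal libraries. With no filter all 3 could be fitted, and none passed the threshold (adjusted p = 0.787 for Plxnd1, 0.756 for Plxna1 and 0.756 for Plxna4).

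Between P25 and the younger libraries (P14 and P15), with antibody as a term in the fit, 1.04% of 96 genes were called, which is 1 gene, and 0 when any 1 library was left out. Again no receptor was tested. Plxnd1 had 957 and 1022 CPM at P25, against 2230, 1006 and 947 CPM at P14 and P15, and its high value came from the smallest library, where it had 10 tags. Plxna1 had 1077 and 852 CPM at P25, against 1338, 862 and 1624 CPM at P14 and P15. With no filter the log2 fold changes were -0.27 for Plxnd1 (SE 0.58, adjusted p = 0.857) and -0.22 for Plxna1 (SE 0.58, adjusted p = 0.907). A difference with age was not detectable for these receptors at this depth.

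Illumina libraries (Protocol 2, P11 and P13) were set against 454 libraries (Protocol 1, P14 and P25) within the polyclonal antibody, where protocol, platform and age cannot be told apart. Of 334 genes, 8.38% were called, 4.19% higher with Protocol 2 and 4.19% higher with Protocol 1, none of them a receptor. The count of 28 genes rested on the libraries used: it was 1 of 838 without the P14 454 library, 2 of 856 without the P25 454 library and 16 of 144 without the P13 Illumina library. Plxnd1 had 471 and 551 CPM in the Illumina libraries, against 1006 and 1022 CPM in the 454 libraries. These values did not overlap, but the log2 fold change of -0.78 did not pass the test (adjusted p = 0.456). For Plxna1 the fold change was 0.16 (adjusted p = 0.928) and for Plxna4 -0.17 (adjusted p = 0.929). With no filter on low counts the values were -0.06 for Plxnd1, 0.85 for Plxna1 and 0.51 for Plxna4, none past the threshold, but in that fit the median of all 8429 genes was 1.85, against 0.05 in the filtered one, and 27 genes were called higher with Protocol 2 and 0 with Protocol 1. Plxna2, Plxnb1, Plxnc1, Robo1, Robo2 and Plxna3 had too few tags to enter the main, filtered test. In the fit with no filter their log2 fold changes lay between 0.31 (Plxnb1) and 2.02 (Plxnc1 and Robo1), none past the threshold. Plxna2 had 1.51 in that fit (edgeR, unadjusted p = 0.0498, adjusted p = 0.822).

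The genes around the receptors were taken from lists of the semaphorin and Slit pathways. Of the 41 cytoplasmic partners and effectors, 35 had a tag and 12 were tested. Of these, 3 were called for FMRP and 4 for Hu, where 33.5% and 26.7% of all 1015 genes were called. The median log2 fold change was 0.38, against -0.17 for all 1015 genes. With the filter lowered to 3 tags 22 were tested, 5 called for FMRP and 2 for Hu, where 24.5% and 17.8% of all 2980 genes were called. The median was 0.91, against -0.13 for all 2980 genes. Gsk3b and Rac1, called for Hu in the main test, missed the threshold with that filter (adjusted p = 0.0598 and 0.0915). The 4 tested effectors with most tags were named by rule. Arhgap35 had 47 and 59 tags in the FMRP P11 and P13 libraries, against 6 and 10 in the Hu libraries (log2 fold change 3.08, SE 0.63, adjusted p = 0.00415). Dpysl2, the semaphorin effector also known as CRMP2, had 12 and 46 tags in the FMRP libraries, against 93 and 206 in the Hu libraries (log2 -2.02, SE 0.64, adjusted p = 0.0241). The kinase gene Gsk3b had 14 and 24 tags in the FMRP libraries, against 53 and 97 in the Hu libraries (log2 -1.61, SE 0.57, adjusted p = 0.0350). The call of Gsk3b held in 6 of 13 alternatives and was lost with the lower filter (adjusted p = 0.0598) and without the FMRP P11, the FMRP P13 or the Hu P11 library (adjusted p = 0.291, 0.0954 and 0.129). That of Dpysl2 held in 10 of 13 and was lost without the FMRP P11 library (adjusted p = 0.235). Arhgap35 kept its call in 11 of 13 and lost it without the Hu P11 library (adjusted p = 0.0568). Arhgef12, whose product binds B-type plexins, had 51 and 43 tags in the FMRP libraries and 30 and 70 in the Hu libraries, with an adjusted p of 0.570.

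The other called effectors were named after their values were seen. Mical2, which encodes a MICAL-family enzyme that takes actin filaments apart, had 12 and 32 tags in the FMRP P11 and P13 libraries, against 0 and 1 in the Hu libraries (adjusted p = 0.00283). Arhgef11, whose product also binds B-type plexins, had 14 and 17 tags in the FMRP libraries, against 0 and 3 in the Hu libraries (adjusted p = 0.00484). The small GTPase genes Rnd1 and Rac1 were called for Hu. Rnd1, which binds plexin intracellular domains, had 0 and 1 tags in the FMRP libraries, against 15 and 25 in the Hu libraries (adjusted p = 0.00314). Rac1 had 2 and 4 tags in the FMRP libraries, against 8 and 21 in the Hu libraries (adjusted p = 0.0271). No other small GTPase gene of the list was called, and Rhod and Rras had no tag in the transcript lists. The call of Rac1 held in 3 of 10 alternatives and was lost with the lysate as a replicate block (adjusted p = 0.154) and without the FMRP P11, the FMRP P13 or the Hu P11 library (adjusted p = 0.371, 0.231 and 0.153). Mical2 and Rnd1 kept theirs in 10 of 11 each, lost with genomic tags for Mical2 (adjusted p = 0.114) and without the Hu P13 library for Rnd1 (adjusted p = 0.0989). Arhgef11 kept it in 10 of 12 and lost it without the FMRP P13 or the Hu P11 library (adjusted p = 0.0898 in both).

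The ligands had few tags. Of 20 semaphorin genes, 13 had a tag and 2 were tested, 0 called for FMRP and 1 for Hu. With the filter lowered to 3 tags 5 were tested, again with 0 called for FMRP and 1 for Hu, and the median log2 fold change was -0.35. Over all genes that fit called 24.5% for FMRP and 17.8% for Hu. Sema4b had 0 and 0 tags in the FMRP P11 and P13 libraries, against 12 and 15 in the Hu libraries, at least 8.42-fold lower in FMRP and past the threshold (adjusted p = 0.00297), but not without the FMRP P13 library (adjusted p = 0.0511) or the Hu P11 library (adjusted p = 0.0736). Sema5a had 7 and 17 tags in the FMRP libraries and 9 and 28 in the Hu libraries, with an adjusted p of 0.807. Semaphorin tags summed to 77 in the FMRP and 130 in the Hu Illumina libraries, while the tags of the receptors themselves summed to 242 in the FMRP and 56 in the Hu Illumina libraries. Of the 3 Slit genes 2 had a tag, with 5 tags in the FMRP and 1 in the Hu Illumina libraries. The 7 coreceptor genes, neuropilins among them, had 32 tags in the FMRP and 48 in the Hu Illumina libraries, and none was tested. With the lower filter 4 were tested, 0 called for FMRP and 1 for Hu. Plxnb3 and Robo4 together had 5 tags in the FMRP and 0 in the Hu Illumina libraries, and Robo3 had no tag in the transcript lists.

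Receptors of other guidance cues were mixed. Of 22 such genes 19 had a tag, 5 were tested, 2 were called for FMRP and 0 for Hu, with a median log2 fold change of 1.41. With the lower filter 10 were tested, 3 were called for FMRP and 0 for Hu, and the median was 0.45. Over all genes the main test called 33.5% for FMRP and 26.7% for Hu, and the lower filter 24.5% and 17.8%. Ptprs, a receptor-type tyrosine phosphatase that binds proteoglycans, had 65 and 96 tags in the FMRP P11 and P13 libraries, against 25 and 33 in the Hu libraries (log2 1.78, SE 0.56, adjusted p = 0.0237). Its call held in 8 of 13 alternatives and was lost with the lower filter (adjusted p = 0.0831), without the Hu P11 library (adjusted p = 0.156) and without the Hu P13 library (adjusted p = 0.0527). Its relatives Ptprf (8 and 17 in the FMRP libraries, 4 and 8 in the Hu libraries, adjusted p = 0.0612) and Ptprd (18 and 25 in the FMRP libraries, 47 and 73 in the Hu libraries, adjusted p = 0.105) did not pass. The netrin receptor gene Unc5c had 3 and 7 tags in the FMRP libraries and 12 and 20 in the Hu libraries, with an adjusted p of 0.0857. Dscam, which encodes a homophilic receptor and was named after its values were seen, had 12 and 23 tags in the FMRP libraries, against 0 and 2 in the Hu libraries (adjusted p = 0.00316), but an adjusted p of 0.0577 without the Hu P11 library.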

How the data were processed

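Per the submitters' processing notes, reads were aligned with Novoalign to mm9, with no version given. For each library the authors deposited a list of unique tags on the genome and one on RefSeq transcripts. Each line was taken as 1 tag. The value beside each tag, a read count on 454 and a score of no stated meaning on Illumina, as deposited by the authors, was not used further. The authors' gene table holds whole-number tag counts of the FMRP libraries per gene, over the transcript and the coding sequence, an exon array intensity from another measurement per the file headers, and the authors' own p-value, chi-square score and FDR, which exceeds 1 in many lines and was treated as a score. Transcript and coding lengths and gene bounds come from the same table.

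Of 11622 transcript accessions with tags, 9845 were matched to genes through a RefSeq gene table and 1570 through the authors' table, and 207 stayed unmatched. The table's lines were summed per gene. FMRP against Hu used transcript tags and the other comparisons the table's counts, all in edgeR 4.0.16 (R 4.3.3; TMM, filterByExpr, quasi-likelihood test, Benjamini-Hochberg). The code for FMRP against Hu was also run on simulated counts. These were drawn for independent libraries with no shared lysate and no age difference, so that run does not cover the pairing or the ages of the real ones. All tests are two-sided, and DESeq2 1.42.0 was an alternative. Exact and Wilson 95% intervals cover counting error only. Each library is 1 pool of mice and replicates differ in age, so p-values reflect the spread among these libraries only. The P11 and P13 lysates pair FMRP with Hu libraries, per the series text, so the 4 Illumina libraries share pools. The main fit had no term for the lysate and treated them as independent. Deviations of same-lysate libraries correlated across 1015 genes at 0.195. Intervals, sums and figures used Python 3.11.15, scipy 1.17.1 and matplotlib 3.10.9.

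All 10 receptors were named, and from each pathway list the up to 4 tested genes with most Illumina tags, along with called genes in short counts. The receptors and lists were chosen with earlier results of these data known. Sequences of the mm9 transcripts were not used here.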

Additional observations from a re-analysis of the deposited data

Results flagged for a closer look

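FMRP and Hu differed in opposite directions in the P11 and P13 lysates for 3 receptors, each lysate holding 1 library per protein. The log2 ratio of FMRP over Hu at P11 minus that at P13 was 4.09 for Plxnc1, 1.94 for Robo2 and 1.20 for Robo1. The difference between the lysates was not tested, and each value rests on 1 to 12 tags per library. For Plxnc1, 7 of the 10 FMRP tags at P11 lay in a single stack over nt 4102 to 4152, against 1 Hu tag in that lysate. How many of all genes changed direction between the lysates was not counted.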

How the results depend on the processing

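The excess of FMRP over Hu tags kept its direction for Plxna1, Plxna2 and Plxnd1 in every alternative that could test them. Plxna1 and Plxnd1 also stayed past the threshold in each of these, whereas Plxna2 lost the call with no filter and without the Hu P11 library, as given above. The count of called genes was 611 and lay between 323 and 531 when 1 library was left out, with 3 or 4 receptors called. It was 1260 with the lower filter, which was chosen after seeing the data. With the 454 FMRP libraries added and a term for platform, 145 of 202 tested genes were called. Plxna1 was the only receptor tested there, and it passed. As no Hu library was read on 454, FMRP over Hu still rests on the 4 Illumina libraries in that fit. The 454 libraries act there only on the filter, the scaling and the estimated spread, so they add no evidence for Plxna1. That fit is among the alternatives counted above for Gsk3b, Dpysl2, Arhgap35 and Ptprs. With the lysate as a replicate block the count was 602, and the pairing changed no call of a receptor but ended that of Rac1. Scaling moved the median log2 fold change over the tested genes, which was -0.17 under TMM, 0.21 under DESeq2 size factors and -0.43 under library totals. For age the count of 1 called gene was 0 in each alternative. For protocol the count of 28 was 0 with DESeq2 and 1 to 20 when 1 library was left out. The coding share of 85.7% moved by less than its spread between libraries in each alternative. With the 454 FMRP libraries added, Ptprs had a log2 fold change of -0.0092 (adjusted p = 0.990) and Arhgef12 of -1.44 (adjusted p = 0.0308). Both have the other sign than in the main fit, and Arhgef12 passed the threshold in favour of Hu. The contrast is still between the same Illumina libraries, under another filter and scaling, so these signs say nothing of FMRP on 454. The log2 fold changes of Plxna1, Arhgap35 and Ptprd also moved down, from 5.16, 3.08 and -1.13 in the main fit to 3.39, 1.26 and -2.94. Depth limits the test of FMRP against Hu, for which 6 of the 10 receptors had too few tags, and Plxna4 has no line in the transcript lists.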
